A study of Mus musculus with 2 samples.

Results

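The glycolysis and pentose phosphate genes described here are 31 genes of mouse: the glucose carriers Slc2a1 and Slc2a3, the lactate carriers Slc16a1 and Slc16a3, the enzymes of glycolysis and of the pentose phosphate pathway with their isoenzymes, the pyruvate dehydrogenase kinase Pdk1 and the transcription factor subunit Hif1a. They were taken by name from the molecule table of a single-cell RNA experiment on spleen T cells. All 31 were found among the 19837 genes of that table, and all 31 had molecules in T cells. For comparisons between cell classes, 27 of the 31 had 100 or more molecules over the 21 sums that were fitted. Hk2, Pfkfb4, Aldoc and Slc16a3 did not, and their molecules are given without a test.

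The study injected female mice of the strain labelled C57/BL6N (C57BL/6 in the protocol) and captured their spleen cells with the BD Rhapsody system, in which every captured RNA carries a cell label and a molecule label. There were 3 groups of 3 mice: saline, 6 mg/kg remimazolam with collection after 4 h, and 6 mg/kg remimazolam with collection after 8 h. Remimazolam, a benzodiazepine sedative of brief action, activates GABA(A) receptors. By its labels the saline group stands at 0 h, so neither drug time had a saline group of its own. Cells of the 3 mice of a group shared 1 sample tag, so each treatment was 1 pool of cells, and mice could not be told apart. The cells are labelled CD45+CD3+CD5+, while another part of the protocol describes a sort on CD45+ alone.

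Of 17299 cells, 15504 were kept as T cells, with 5094 in the saline pool, 5197 in the 4 h pool and 5213 in the 8 h pool, and median depths of 2515 to 2536 molecules per cell. A T cell had at least 1 molecule of Cd3d, Cd3e, Cd3g or Trac and fewer than 2 of B cell and myeloid genes. Molecules of lineage genes then placed 9162 T cells in 7 classes: naive CD4, naive CD8, memory CD4, CD8 with memory genes, regulatory (Foxp3), stimulated (2 or more Egr or Nr4a genes) and cycling (2 or more mitosis genes such as Mki67). The cycling gate was applied first, and cycling cells held Foxp3 at 78.9 to 167 CPM (counts of molecules scaled to the same total in every class and pool), so it also took regulatory cells. The CD8 class defined by 2 or more memory genes had Ccr7, a lymph node homing receptor of naive and central memory cells, at 248 to 256 CPM, beside 296 to 362 in naive CD8 cells. It is therefore called here by its rule and not as memory CD8 cells. Median depth was 2233 to 3003 molecules per cell in 6 classes and 6731 to 7608 in cycling cells. Summed markers of B cells lay between 18.2 and 102 CPM and of myeloid cells between 63.2 and 120.2 in every class and pool. A list of 8 dissociation and heat shock genes summed to 992 to 1079 in stimulated and 1014 to 1371 in cycling cells, against 556 to 689 in naive cells, and its part in the results below was not tested.

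Glycolysis splits glucose into pyruvate in the cytosol and yields ATP and NADH, and lactate dehydrogenase turns pyruvate into lactate while restoring NAD+. The pentose phosphate pathway branches off at glucose 6-phosphate and supplies NADPH and ribose for nucleotides. Resting naive T cells are known for a low rate of glycolysis, and activated and dividing T cells for a high one. Pdk1 phosphorylates pyruvate dehydrogenase and so holds pyruvate back from the mitochondria, and Hif1a encodes the oxygen-regulated subunit of a factor that drives many of these genes.

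The stretch before the transcription start is shown for 6 genes with large differences between classes: 5 that were higher in cycling cells and Pdk1, which was lower there. The 6 were chosen after their values were seen, and only windows free of annotated exons were taken, which left out Tpi1 and Tkt. Each is the 250 bases before a RefSeq start (GRCm38.p6), 5′ to 3′ on the strand of the gene, checked against the exons of GENCODE M21. Capitals mark ACGTG or GCGTG on either strand, the core letters of the hypoxia response element bound by Hif1a. CACGTG, the E-box bound by Myc, holds ACGTG on both strands.
Gapdh, chr6:125165774-125166023, minus strand: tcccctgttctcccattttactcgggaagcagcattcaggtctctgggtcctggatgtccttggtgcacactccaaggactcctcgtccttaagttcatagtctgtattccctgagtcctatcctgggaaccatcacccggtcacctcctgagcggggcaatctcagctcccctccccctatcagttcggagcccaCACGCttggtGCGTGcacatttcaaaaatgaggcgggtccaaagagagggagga
Pgk1, chrX:106186850-106187099, plus strand: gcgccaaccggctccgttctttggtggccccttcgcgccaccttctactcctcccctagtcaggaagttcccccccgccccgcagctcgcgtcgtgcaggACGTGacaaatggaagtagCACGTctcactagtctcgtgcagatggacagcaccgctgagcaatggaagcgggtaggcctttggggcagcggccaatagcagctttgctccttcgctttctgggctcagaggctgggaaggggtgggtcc
Pgam1, chr19:41911621-41911870, plus strand: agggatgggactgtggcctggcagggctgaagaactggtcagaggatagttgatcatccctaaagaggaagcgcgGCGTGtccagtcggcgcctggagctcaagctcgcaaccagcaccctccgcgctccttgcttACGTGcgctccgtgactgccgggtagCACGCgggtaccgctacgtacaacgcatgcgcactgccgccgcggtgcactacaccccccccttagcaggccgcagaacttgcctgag
Ldha, chr7:46845554-46845803, plus strand: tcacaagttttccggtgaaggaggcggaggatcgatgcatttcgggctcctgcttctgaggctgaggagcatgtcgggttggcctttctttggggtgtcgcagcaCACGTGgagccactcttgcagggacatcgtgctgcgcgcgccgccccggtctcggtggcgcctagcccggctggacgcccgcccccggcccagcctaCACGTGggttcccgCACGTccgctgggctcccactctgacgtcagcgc
Slc16a1, chr3:104638414-104638663, plus strand: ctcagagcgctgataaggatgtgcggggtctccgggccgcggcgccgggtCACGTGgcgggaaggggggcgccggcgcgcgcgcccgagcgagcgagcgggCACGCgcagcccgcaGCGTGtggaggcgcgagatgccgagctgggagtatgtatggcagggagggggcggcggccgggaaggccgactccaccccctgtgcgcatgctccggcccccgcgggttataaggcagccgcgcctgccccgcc
Pdk1, chr2:71872974-71873223, plus strand: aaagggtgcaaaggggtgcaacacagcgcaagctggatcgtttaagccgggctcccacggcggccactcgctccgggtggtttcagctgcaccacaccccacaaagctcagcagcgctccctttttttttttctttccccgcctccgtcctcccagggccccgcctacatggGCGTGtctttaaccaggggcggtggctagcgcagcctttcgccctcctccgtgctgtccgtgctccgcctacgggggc

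A match to ACGTG or GCGTG was present in 35 of 44 windows of the 30 genes that had an entry, which is 79.5%, beside 38.6% of all 32851 windows of this length. Some windows of the same gene overlap. Counted by gene it was 27 of 30, beside 41.5% of all 27025 genes. Slc2a3 had no entry. CACGTG was in 5 of the 44 windows, or 11.4%, beside 6.02% of all windows. The windows of these genes also had a higher G and C content, with a median of 60.4% against 52.4%, and both short motifs hold G and C. CCGCCC, a run of G and C letters only, was in 25 of the 44 windows, or 56.8%, beside 32.7% of all windows. Ldha held 5 matches and 2 CACGTG sites in the window printed, Slc16a1 held 4 matches and Pdk1 held 1. A second Pdk1 window, which lies in an exon, held 0. The window of Tpi1, the gene with the largest rise in cycling cells, held 0 matches, and that of Tkt held 1. A match describes letters and not binding.

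Between the classes, 2 patterns are described first, and other calls, such as those of Hif1a, follow. Pdk1 was lower than in naive cells in all 5 class comparisons. The enzymes of the lower steps of glycolysis were higher in cycling cells of all depths together. They were higher in part in stimulated and regulatory cells, and only in small steps in memory CD4 cells. Among these enzymes, Eno1 was called lower in regulatory cells and Pkm in memory CD4 cells. Among cells of 2000 to 4000 molecules, none of the enzymes of the lower steps was higher in cycling cells at an adjusted p below 0.05. Among cells of 4000 to 8000 molecules only Gapdh was, and both ranges held few cycling cells. The main class comparisons used molecules summed per class and pool in 1 fit of 7 classes and 3 pools. They used edgeR's quasi-likelihood test, with the pool as a block and Benjamini-Hochberg adjustment over 9422 genes. A gene counted as called at an adjusted p below 0.05. Cycling and stimulated cells were set against the mean of both naive classes, memory CD4 and regulatory cells against naive CD4 cells, and CD8 cells with memory genes against naive CD8 cells. Each class was thus measured 3 times, but the 3 pools also differed in treatment, and they shared 1 capture. Shifts common to all classes of a pool were taken up by the block. The p-values therefore rest on how class differences varied over the 3 pools, in an error shared by 7 classes. They do not measure variation between mice.

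**Figure D1:**
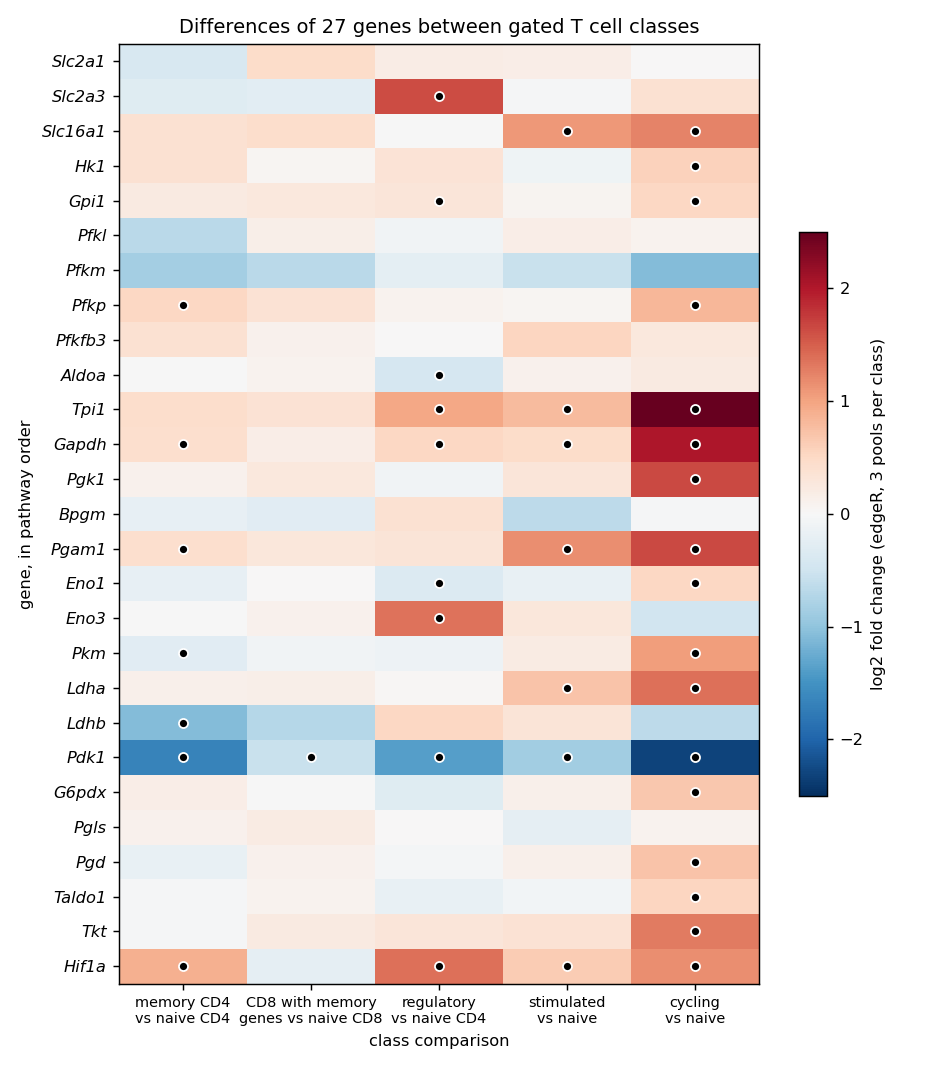
Colour gives the log2 fold change of 27 genes (rows, in pathway order) in 5 comparisons of T cell classes (columns), each from 3 pools per class, and a dot marks an adjusted p below 0.05. The row of Pdk1 is blue with a dot in all 5 columns, and the column of cycling cells holds 16 red calls.

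Pdk1 lies on chromosome 2 from 71873224 to 71903858, plus strand (GRCm38, GENCODE M21). In naive CD4 cells its level was 276, 299 and 269 CPM in the saline, 4 h and 8 h pools. In naive CD8 cells it was 202, 235 and 261. In memory CD4 cells it was 109.9, 91.8 and 81.7, in regulatory cells 100.2, 121 and 122, and in stimulated cells 131, 148 and 153. In CD8 cells with memory genes it was 144, 165 and 156, and in cycling cells 45.0, 50.4 and 54.0. No pool of any of these 5 classes reached the lowest naive pool of its comparison. The log2 fold change was -2.32 ± 0.15 (SE) in cycling cells (adjusted p = 2.32e-25, edgeR), -1.67 ± 0.11 in memory CD4 (8.47e-25) and -1.38 ± 0.11 in regulatory cells (1.7e-19). It was -0.87 ± 0.11 in stimulated cells (adjusted p = 1.78e-10, edgeR) and -0.56 ± 0.10 in CD8 cells with memory genes (1.81e-05). In memory cells without a molecule of the naive genes Ccr7 or Lef1 the difference was larger, at -2.20 in CD4 and -0.93 in CD8 cells. Pdk1 kept its direction and its call in all of the 11 or 12 alternative settings run for each comparison.

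Of the other pyruvate dehydrogenase kinases, Pdk2 was lower in fewer classes and Pdk3 was higher in 1. Pdk2 was lower in memory CD4 cells, at 3.14, 8.89 and 9.90 CPM against 12.03, 18.6 and 15.5 in naive CD4 cells (log2 fold change -1.10 ± 0.37, adjusted p = 0.0279, edgeR). It was also lower in cycling cells (-1.43 ± 0.43, adjusted p = 0.00403, edgeR). Pdk3 was higher in cycling cells, at 56.8, 41.4 and 60.2 CPM against 9.90 to 18.6 in naive CD4 and 12.5 to 21.04 in naive CD8 cells. Its log2 fold change was 1.77 ± 0.25 (adjusted p = 4.64e-09, edgeR), opposite in sign to that of Pdk1. Unlike Pdk1, neither Pdk2 nor Pdk3 was examined in the alternative settings, cells of restricted depth among them.

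Cycling T cells had the highest level of the 31 genes together, at 4624, 4585 and 4966 CPM in the saline, 4 h and 8 h pools. Naive CD4 cells had 2481, 2562 and 2508, and naive CD8 cells 2139, 2336 and 2302. Of the 27 genes tested, 16 were higher and 1 was lower in cycling than in naive cells, with a median log2 fold change of 0.54 beside -0.01 over all genes tested. Of all 9422 genes tested, 24.4% were higher and 21.5% lower in this comparison. The calls covered 6 of 8 genes of lower glycolysis, 4 of 5 of the pentose phosphate pathway, 3 of 7 tested in upper glycolysis, 1 of 3 carriers tested, Ldha and Hif1a.

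Among the lower steps, Tpi1, the triose phosphate isomerase, stood at 99.4, 80.9 and 120.5 CPM in cycling cells against 14.6 to 21.3 in naive CD4 and 16.1 to 24.5 in naive CD8 cells. Its log2 fold change was 2.48 ± 0.21 (adjusted p = 9.95e-19, edgeR). Gapdh, which oxidises glyceraldehyde 3-phosphate, stood at 1231, 1257 and 1306 against 324 to 328 in naive CD4 and 299.8 to 328 in naive CD8 cells. The change was 2.02 ± 0.06 (adjusted p = 1.3e-47, edgeR), the narrowest error of the group, and the 3 cycling pools lay close together. Pgk1, the first step that makes ATP, rose from 115 to 143 in the naive pools to 388, 390.3 and 438 in cycling cells (log2 fold change 1.65 ± 0.09). Pgam1, phosphoglycerate mutase, rose from 76.1 to 105 in naive pools to 268, 281 and 312 (1.66 ± 0.11). Pkm, which releases pyruvate, had 409.6, 397.5 and 476 in cycling cells (1.05 ± 0.09, adjusted p = 1.72e-18, edgeR). Eno1, the main enolase, changed least of these, with 166, 178 and 193 (0.52 ± 0.12). For all of these 6 genes, every cycling pool lay above every naive pool. Eno3, the muscle enolase, and Bpgm, which makes 2,3-bisphosphoglycerate, did not pass. Gapdh lies on chromosome 6 from 125161715 to 125166467, Tpi1 on chromosome 6 from 124810586 to 124814296 and Pgk1 on chromosome X from 106187100 to 106203699. Gapdh, Tpi1, Pgk1, Pgam1, Pkm, Aldoa, Eno1 and Ldha have near-identical copies in the genome, so their molecule counts may be split with those copies.

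At the end of the pathway, Ldha, which makes lactate, had 509, 565 and 559 CPM in cycling cells, against 228 to 252 in naive CD4 and 181 to 214 in naive CD8 cells (log2 fold change 1.37 ± 0.08). Its isoenzyme Ldhb had 9.47, 3.60 and 14.5 and did not pass (-0.65 ± 0.45, adjusted p = 0.248, edgeR). Slc16a1, the lactate carrier MCT1, had 56.8, 63.0 and 72.7 in cycling cells against 17.2 to 21.9 in naive CD4 and 31.6 to 42.5 in naive CD8 cells (1.247 ± 0.20). The glucose carriers Slc2a1 and Slc2a3 did not pass, with log2 fold changes of 0.00 and 0.37. In upper glycolysis Hk1, Gpi1 and the platelet-type phosphofructokinase Pfkp were higher, by 0.58, 0.52 and 0.84 on the log2 scale. Hk1, which traps glucose in the cell, had 59.2, 68.3 and 64.4 CPM in cycling cells against 33.9 to 54.6 in the naive pools. Gpi1, the glucose phosphate isomerase, had 215, 158 and 191 against 117 to 147, and Pfkp had 80.5, 77.3 and 64.4 against 29.8 to 64.7, where the 8 h pools of cycling and naive CD8 cells met. Pfkl, Pfkm and Pfkfb3, which makes the activator of phosphofructokinase, did not pass, at 0.08, -1.09 and 0.26. Aldoa, the aldolase that splits fructose 1,6-bisphosphate, missed the threshold (0.22 ± 0.09, adjusted p = 0.0518, edgeR). Hexokinase 2, the inducible isoenzyme, had 9, 9 and 6 molecules in the 179 cycling cells, or 21.3, 16.2 and 12.5 CPM. It had 0, 3 and 1 molecules in naive CD8 cells, or 0, 5.35 and 2.02 CPM. It had none in naive CD4 cells of any pool, and 3 molecules a pool, the limit that a count of 0 allows, would be 1.29, 1.36 and 1.29 CPM.

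In the pentose phosphate pathway, transketolase (Tkt) changed most in cycling cells, with 187, 162 and 189 CPM against 64.3 to 80.0 in naive CD4 and 66.7 to 82.4 in naive CD8 cells (log2 fold change 1.30 ± 0.13, adjusted p = 7.85e-15, edgeR). Its partner Taldo1 rose by 0.54, the NADPH-forming dehydrogenases Pgd and G6pdx by 0.71 and 0.67, and Pgls, the lactonase between them, did not pass (0.09). Taldo1 had 194, 149 and 133 CPM in cycling cells against 89.4 to 127 in the naive pools, and Pgd had 49.7, 73.7 and 58.2 against 29.8 to 42.2. G6pdx had 54.5, 34.2 and 39.5 CPM in cycling cells against 22.2 to 29.8 in the naive pools, and it lost its call without the saline or the 8 h pool. Taldo1 lost its call without the saline pool, and Pgd and, in upper glycolysis, Hk1 without the 4 h pool. Hif1a had 123, 147 and 131 CPM in cycling cells against 50.6 to 75.4 in naive pools (1.153 ± 0.14, adjusted p = 6.12e-11, edgeR).

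These differences moved with the number of molecules in a cell. Among cycling cells with 2000 to 4000 molecules (7, 15 and 9 cells in the 3 pools) the 31 genes together had 2092, 3355 and 2715 CPM. Those with 4000 to 8000 molecules (18, 23 and 21 cells) had 3984, 3280 and 4062, and those with 8000 or more (23, 32 and 25 cells) had 5060, 5206 and 5502. Naive cells had 2414, 2479 and 2476 in the lowest of these ranges and 2910, 3565 and 2930 in the middle one, from 18, 11 and 18 cells. No naive cell had 8000 or more. With cells of 2000 to 4000 molecules only, none of the 16 higher calls in cycling cells remained, and 0 of 27 genes were higher at an unadjusted p below 0.05. Of all genes tested at that depth, 1.32% were higher and 2.7% lower. The log2 fold change of Gapdh was 0.43 there (adjusted p = 0.36, edgeR), and Pdk1 was still lower (-2.15, adjusted p = 8.97e-05). With cells of 4000 to 8000 molecules, Gapdh (0.96 ± 0.20, adjusted p = 6.61e-05, edgeR) and Hif1a (1.54 ± 0.41, 0.00402) were higher and Pdk1 was lower (-1.49 ± 0.40, 0.00412), beside 5.71% higher and 2.6% lower of the 6954 genes tested. Pkm and Tkt were at -0.01 and -0.37 there, and Tpi1, Pgk1 and Pgam1 at 0.95, 0.39 and 0.52, none of them called, and Ldha at 0.71 missed the threshold (adjusted p = 0.0839, edgeR). These 2 settings held few cells. The fit at 4000 to 8000 molecules was separate from that of 7 classes. It set cycling cells against naive CD4 and CD8 cells summed together, for genes with 10 or more molecules. Its calls therefore differ from the main ones in reference and error as well as in depth. The 10 mitosis genes of the gate summed to 1581, 1946 and 987 CPM in cycling cells of the lowest range, 4434, 5838 and 6908 in the middle range and 5119 to 6108 in the highest. From the middle to the highest range they were higher in the saline pool and lower in the 4 h and 8 h pools.

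**Figure D2:**
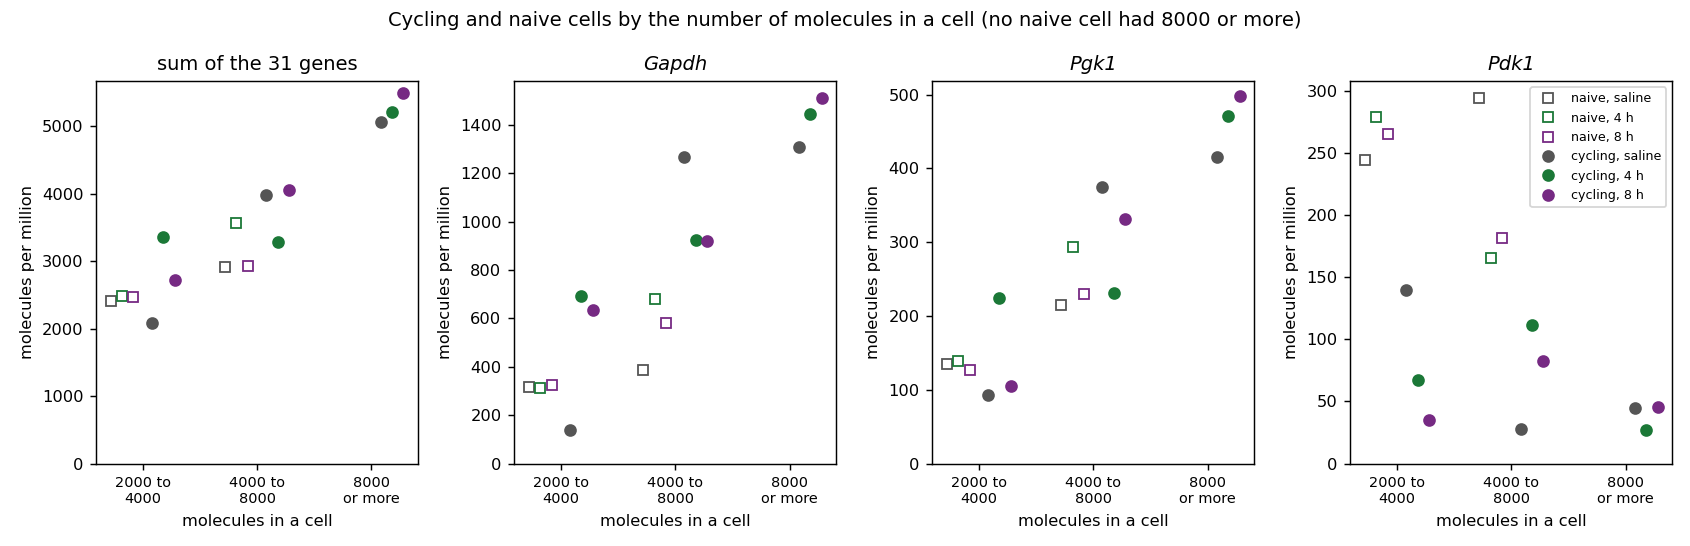
Molecules CPM (vertical axis, from 0) in naive (open squares) and cycling cells (filled circles), by the number of molecules in a cell (horizontal axis), with 1 point per pool, for the 31 genes summed, Gapdh, Pgk1 and Pdk1. The sum of the 31 genes in cycling cells goes from 2092 to 3355 in the lowest depth range to 5060 to 5502 in the highest, while Pdk1 is low in cycling cells of the highest range at 26.8 to 45.5.

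Stimulated cells, gated on Egr1, Egr2, Egr3, Nr4a1 and Nr4a3, had more Pgam1, Ldha, Gapdh and Tpi1, of the carrier Slc16a1 and of Hif1a than naive cells. Of 27 genes tested, 6 were higher and 1 was lower, beside 9.15% higher and 6.98% lower of all genes tested. Pgam1 had 173, 253 and 224 CPM (log2 fold change 1.17 ± 0.11, adjusted p = 1.32e-14, edgeR). Slc16a1 had 53.8, 64.4 and 61.5 (1.08 ± 0.20, 1.44e-05) and Ldha 356, 408 and 331 (0.71 ± 0.09, 6.01e-11). All 3 pools of stimulated cells lay above every naive pool for these 3 genes. Gapdh had 444, 384 and 519.7 (0.46 ± 0.08) and Hif1a 92.5, 85.8 and 115 (0.63 ± 0.15), a call that Hif1a lost without the 8 h pool. Tpi1 had 40.4, 27.9 and 27.8 (0.79 ± 0.27, adjusted p = 0.0358, edgeR), and it lost the call without the saline or the 8 h pool. Pgk1, between Gapdh and Pgam1 in the pathway, did not pass (0.30 ± 0.11, adjusted p = 0.0554, edgeR). No gene of upper glycolysis and none of the pentose phosphate pathway was called. With cells of 2000 to 4000 molecules, 3 of the 6 higher calls remained, those of Pgam1, Ldha and Gapdh, beside 5.33% higher and 3.48% lower of all genes tested. The gate also took other T cells: Trdc, a constant segment of the gamma delta receptor, stood at 87.3 to 182 CPM in stimulated and 43.2 to 152 in cycling cells. Ccl5, a memory gene, stood at 123 to 204 and 381 to 536, and 4 natural killer genes summed to 20.2 to 40.8 and 4.74 to 10.4. Naive cells held no Trdc or Ccl5, by their gate, and the part of these cells in the results was not tested.

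Regulatory cells had more of the glucose carrier Slc2a3, of Hif1a and of 4 enzymes than naive CD4 cells. Of 27 genes tested, 6 were higher and 3 lower, beside 10.3% higher and 9.63% lower of all genes tested. Slc2a3, the high-affinity glucose carrier GLUT3, had 72.1, 82.4 and 80.2 CPM in regulatory cells against 21.5, 23.1 and 26.2 in naive CD4 cells. Its log2 fold change was 1.63 ± 0.19 (adjusted p = 2.5e-11, edgeR), and in cycling, stimulated, memory CD4 and CD8 cells with memory genes it did not pass. Slc2a1, which encodes GLUT1, had 24.0, 22.8 and 21.7 against 14.2, 23.6 and 18.9, with overlapping pools. Hif1a had 152, 177 and 162 against 54.1, 67.0 and 57.2 (1.37 ± 0.13, 1.19e-15). Eno3 had 32.1, 24.5 and 18.4 against 11.2, 8.61 and 6.88 (1.36 ± 0.34, adjusted p = 0.00107, edgeR), while Eno1 was lower, with 98.2, 135 and 120.2 against 141, 132 and 149 (-0.35 ± 0.12, 0.033). The pools of Eno1 overlapped, and its call was lost in 8 of 11 alternatives, without the saline or the 8 h pool among them. Gapdh had 439, 551 and 493 against 324 to 328 (0.51 ± 0.07, 1.75e-08). Tpi1 had 44.1, 43.8 and 21.7 against 16.3, 21.3 and 14.6 (0.96 ± 0.26, 0.00322). Without the saline pool, or with cells of 2000 to 4000 molecules only, it was not called. Aldoa was lower, with 196, 247 and 237 against 279.7 to 291 (-0.41 ± 0.09, 0.000342), a call lost without the saline pool. Gpi1 had 186, 199.9 and 162 against 129.8, 135 and 147, was higher by 0.31 ± 0.11 and lost its call without the saline or the 4 h pool. That call was also lost with no filter on low counts and with cells of 2000 to 4000 molecules only. None of the 5 pentose phosphate genes was called. The Foxp3 gate came before the stimulated and memory gates, so the regulatory class kept cells with genes of those gates. Nr4a1 stood at 174, 85.9 and 152 CPM in regulatory cells against 4.30, 2.27 and 3.87 in naive CD4 cells. Il2rb, a memory gene, stood at 665, 742 and 716, and naive CD4 cells held none, by their gate. Summed B cell markers were 78.1, 102 and 76.8 CPM in regulatory cells against 19.8, 20.8 and 21.9 in naive CD4 cells. The part of these markers and cells in the differences was not tested.

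**Figure D3:**
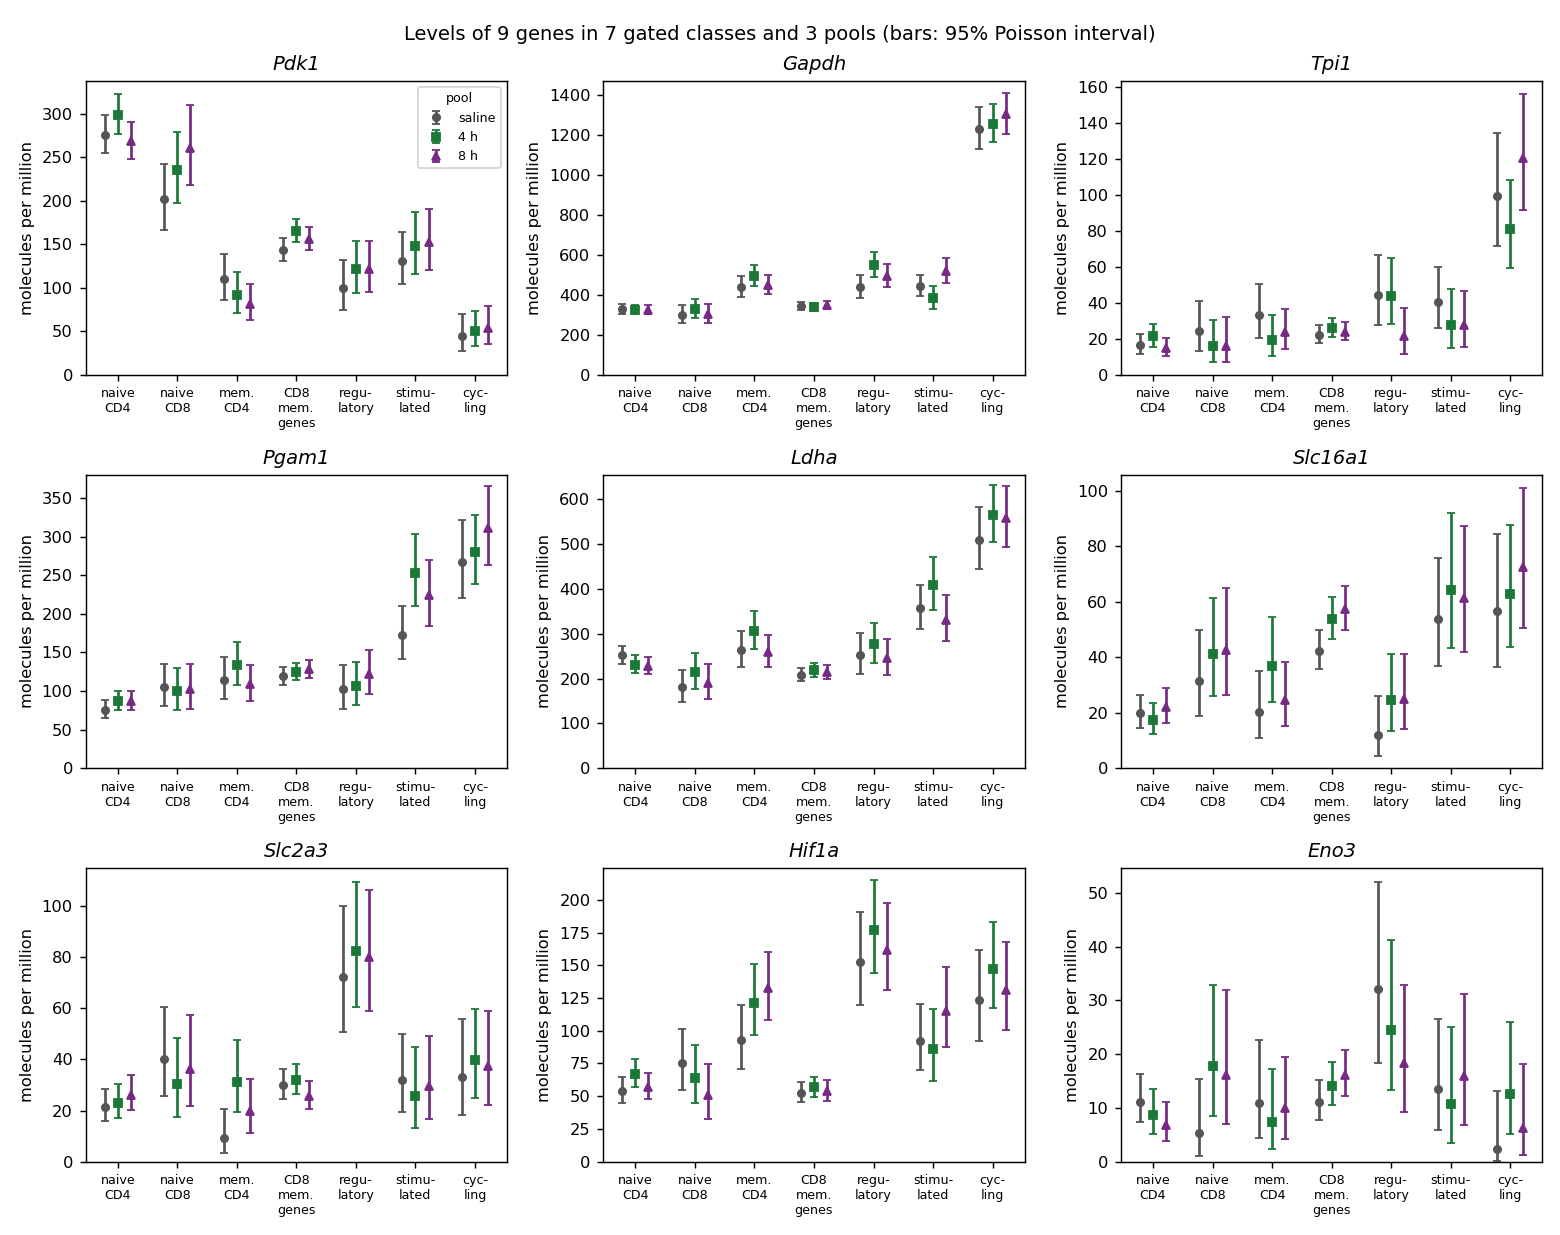
Molecules CPM (vertical axes, from 0) of 9 genes in 7 gated classes (horizontal axis) and 3 pools (colour and shape), with bars for the 95% Poisson interval of each count, which covers counting error only. Pdk1 is highest in the naive classes, Gapdh, Tpi1, Pgam1 and Ldha are highest in cycling cells, and Slc2a3 is highest in regulatory cells at 72.1 to 82.4.

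In memory CD4 cells, 4 of 27 genes were higher and 3 lower than in naive CD4 cells, beside 8.35% higher and 8.27% lower of all genes tested. Hif1a had 92.6, 121 and 132 CPM against 54.1, 67.0 and 57.2 (log2 fold change 0.89 ± 0.13, adjusted p = 3.64e-08, edgeR), and Gapdh had 439.5, 493 and 452 against 324 to 328 (0.41 ± 0.07, 1.88e-06). These calls held in all 11 alternatives. Pfkp had 73.8, 47.4 and 69.3 against 43.8, 44.4 and 37.0 (0.52 ± 0.18, 0.0278), and Pgam1 had 115, 133 and 108.9 against 76.1, 87.0 and 87.3 (0.42 ± 0.12, 0.00857). Both lost the call without the saline pool, Pfkp also without the 8 h pool and Pgam1 without the 4 h pool, and both in memory cells without Ccr7 or Lef1. Pgam1 also lost it with cells of 2000 to 4000 molecules only, and Pfkp with DESeq2. Ldhb, the lactate dehydrogenase subunit of oxidative tissues, was lower with 17.3, 4.44 and 9.90 against 19.3, 21.7 and 21.5 (-1.08 ± 0.34, 0.0154), from 11, 3 and 8 molecules. It lost the call without the 4 h or the 8 h pool. Pkm had 215, 203 and 229 against 234, 257 and 253, a log2 fold change of -0.28 ± 0.09 (adjusted p = 0.0174, edgeR), and leaving out any 1 pool ended that call.

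In CD8 cells with memory genes, Pdk1 was the only call among 27 genes tested, with 0 higher and 1 lower, beside 1.7% higher and 1.13% lower of all genes tested. By edgeR 5 genes were higher at an unadjusted p below 0.05, and with DESeq2 none was called higher and 2 had an unadjusted p below 0.05. The nearest to the threshold was Pgk1, with 156, 140 and 159 CPM against 131, 134 and 115 in naive CD8 cells (log2 fold change 0.27 ± 0.11, adjusted p = 0.289, edgeR). Slc16a1 had 42.2, 53.8 and 57.3 there. The 2 naive classes differed in 2 genes, in a comparison added after the data were seen. Slc16a1 was higher in naive CD8 than in naive CD4 cells, with 31.6, 41.0 and 42.5 against 19.8, 17.2 and 21.9 (0.98 ± 0.24, adjusted p = 0.00274, edgeR). Pkm was lower, with 154, 191 and 194 against 234, 257 and 253 (-0.44 ± 0.10, 0.00171). The pools did not overlap for either gene. Of all genes tested, 4.03% were higher and 2.89% lower in naive CD8 cells. The Slc16a1 call was lost without the 4 h pool and the Pkm call without the saline pool.

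The share of an isoenzyme within its own step does not depend on how libraries are scaled. Exact (Clopper-Pearson) 95% intervals are given in parentheses and cover counting error only. Ldha made up 92.9% (90.6 to 94.8), 91.4% (88.8 to 93.6) and 91.4% (88.8 to 93.5) of Ldha and Ldhb molecules in naive CD4 cells of the saline, 4 h and 8 h pools. It made up 88.1% (81.6 to 92.9), 89.8% (84.3 to 93.8) and 89.1% (83.3 to 93.4) in regulatory cells, and 98.2% (95.4 to 99.5), 99.4% (97.7 to 99.9) and 97.5% (94.8 to 99.0) in cycling cells. The interval in cycling cells lay above that in regulatory cells in every pool. Pfkp made up 54.5% (47.1 to 61.8), 53.3% (45.8 to 60.6) and 58.9% (50.5 to 67.0) of the molecules of the 3 phosphofructokinase genes in naive CD4 cells. It made up 73.4% (60.9 to 83.7), 76.2% (60.5 to 87.9) and 75.7% (64.3 to 84.9) in memory CD4 cells, above the naive share in each pool, with intervals that overlapped. Eno3 made up 7.34% (4.85 to 10.6), 6.11% (3.72 to 9.38) and 4.41% (2.54 to 7.06) of Eno1 and Eno3 molecules in naive CD4 cells. In regulatory cells it was 24.6% (14.8 to 36.9), 15.4% (8.67 to 24.5) and 13.3% (6.81 to 22.5), with intervals that were apart in the saline pool only. Slc2a3 made up 60.2%, 49.5% and 58.1% of the molecules of both glucose carriers in naive CD4 cells and 75.0%, 78.3% and 78.7% in regulatory cells. Its intervals were 48.9 to 70.8, 39.5 to 59.5 and 48.1 to 67.7 in naive CD4 cells, and 60.4 to 86.4, 65.8 to 87.9 and 66.3 to 88.1 in regulatory cells.

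Other genes of these pathways were taken from 4 lists. Their calls were not examined in the alternative settings, so whether those in cycling cells hold in cells of restricted depth was not tested. Of 14 further glycolysis and pentose phosphate genes tested, 3 were higher in cycling cells and 1 was lower, shares no larger than the 24.4% and 21.5% of all genes. Bsg, the partner protein that brings the lactate carriers to the membrane, rose by 0.83 on the log2 scale. Eno1b, a near copy of Eno1, rose by 0.71 and the fructose bisphosphatase-like Tigar by 0.77, while Adpgk, the ADP-dependent glucokinase, fell by 1.29. Of 12 genes of pyruvate entry to mitochondria, 5 were higher in cycling cells (Mpc1 0.64, Mpc2 0.59, Pdha1 0.37, Dld 0.73 and Pdk3) and Pdk2 was lower. Of 15 regulators and targets of Hif1a, 4 were higher and 3 lower in cycling cells, shares close to those of all genes. Among them Egln3, of the group of prolyl hydroxylases that mark Hif1a for decay, was higher in memory CD4 cells. It had 34.5, 32.6 and 24.7 CPM against 3.44, 2.26 and 2.58 in naive CD4 cells (3.32 ± 0.36, adjusted p = 1.8e-12, edgeR). Egln3 was also higher in regulatory (2.12), stimulated (1.40) and cycling cells (2.49). The more abundant Egln1 had 114.6, 85.9 and 97.8 CPM in memory CD4 and 94.5, 90.6 and 80.9 in naive CD4 cells. Egln2 had 40.8, 60.7 and 45.8 against 42.5, 53.9 and 52.9. Mif was higher in cycling (1.31) and stimulated cells (0.80) and Ndrg1 in both (1.58 and 1.53), while Kdm3a (-1.35), Bnip3l (-0.58) and Ddit4 (-0.56), also known targets, were lower in cycling cells.

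Of 10 glucose sensing and growth genes tested, 4 were higher and 1 was lower in stimulated cells, beside 9.15% and 6.98% of all genes. In cycling cells 1 was higher and 2 were lower, beside 24.4% and 21.5% of all genes. Only Txnip and Myc are described here. Txnip, which limits glucose uptake, was lower in 4 of the 5 classes compared with naive cells. It had 125, 97.1 and 74.8 CPM in cycling cells and 188, 146 and 151 in stimulated cells, against 416 to 539 in naive CD4 and 388 to 490.3 in naive CD8 cells. The log2 fold changes were -2.16 ± 0.11 (adjusted p = 1.02e-30, edgeR) and -1.52 ± 0.10 (7.67e-25), and they were -0.42 in memory CD4 and -0.40 in regulatory cells. Myc, a driver of glycolytic genes in activated T cells, was higher in stimulated cells, with 303, 326 and 288 against 68.4 to 89.0 in the naive pools (1.88 ± 0.11, 7.07e-28). It was lower in memory CD4 cells (-0.88 ± 0.16, adjusted p = 9.8e-06, edgeR). In cycling cells Myc had 59.2, 66.6 and 60.2 and was not called. The part of Myc in the differences of the 31 genes was not tested.

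Between treatments, over all T cells, none of the 27 genes with enough molecules passed the fold counted. Each treatment was 1 pool, so there was no test, and 95% intervals of ratios (exact, from the binomial split of the molecules) cover counting error only. Over all T cells the 31 genes together had 2478 CPM after saline, 2575 at 4 h and 2560 at 8 h. The genes counted had 100 or more molecules in the pools compared, and none was at least 25% higher or 20% lower at 4 h or 8 h against saline, or at 8 h against 4 h. Of all genes, 4.11% were higher and 1.86% lower by that margin at 4 h, 3.17% and 2.13% at 8 h, and 1.72% and 3.2% at 8 h against 4 h. The median log2 ratio of the 27 genes was 0.07 at 4 h beside 0.01 over all genes, 0.04 at 8 h beside 0.00, and -0.02 at 8 h against 4 h beside -0.02. At 4 h 20 of the 27 genes had a ratio above 1, beside 55.45% of all genes, and at 8 h 21 of 27, beside 49.54%. At 8 h against 4 h it was 10 of 27, beside 43.45%. The first 2 of these comparisons share the saline pool.

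The counting interval lay above 1 for 5 of the 27 genes at 4 h and below 1 for none, and 13.15% of all genes had an interval that left out 1 in that comparison. Pgd, the 6-phosphogluconate dehydrogenase, had 36.7, 43.7 and 40.3 CPM at saline, 4 h and 8 h, a ratio of 1.19 (95% interval 1.06 to 1.34) at 4 h. Pgls, the enzyme just before it, had 48.0, 54.3 and 49.1 (1.13, 1.02 to 1.26). G6pdx, which opens the pathway, had 28.2, 27.4 and 29.5 (0.97, 0.84 to 1.12). The other 3 genes were Aldoa, Pkm and Pdk1, with ratios of 1.07, 1.06 and 1.06. Pfkm had the highest ratio, 1.20, with an interval of 0.91 to 1.60 from 92 and 113 molecules, and Slc2a3 had 1.13 (0.99 to 1.30). The lowest ratios at 4 h were those of Tkt (0.93), Bpgm (0.95) and Hk1 (0.96).

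At 8 h the interval lay above 1 for 4 genes, and 11.02% of all genes had an interval that left out 1. Slc16a1 had 32.8, 36.8 and 37.8 CPM at saline, 4 h and 8 h and the highest ratio at 8 h, 1.152 (1.01 to 1.31). Gapdh had 375, 388 and 397 (1.06, 1.02 to 1.10), Pgam1 110.1, 117 and 119.9 (1.09, 1.02 to 1.17) and Eno1 122, 127 and 131 (1.076, 1.007 to 1.1502). Bpgm (1.13) and Pgd (1.10) came next to Slc16a1, with intervals that held 1. The lowest ratios were those of Hk1 (0.91), Pfkl (0.93) and Tpi1 (0.94), all with intervals that held 1. From 4 h to 8 h, Tkt (1.10, 1.01 to 1.19) and Pgk1 (1.07, 1.01 to 1.13) were higher and Pdk1 (0.94, 0.89 to 0.99) was lower. Bpgm (1.19) and G6pdx (1.08) at the upper end, and Pfkm (0.88), Slc2a3 (0.89) and Pfkl (0.90) at the lower end, had intervals that held 1. The 4 genes not counted had few molecules at 4 h and saline: Hk2 32 and 29, Pfkfb4 17 and 31, Aldoc 9 and 19, and Slc16a3 25 and 13. Their ratios were 1.08 (0.63 to 1.85), 0.54 (0.28 to 1.001), 0.46 (0.18 to 1.08) and 1.88 (0.93 to 4.01), and all 4 intervals held 1.

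**Figure D4:**
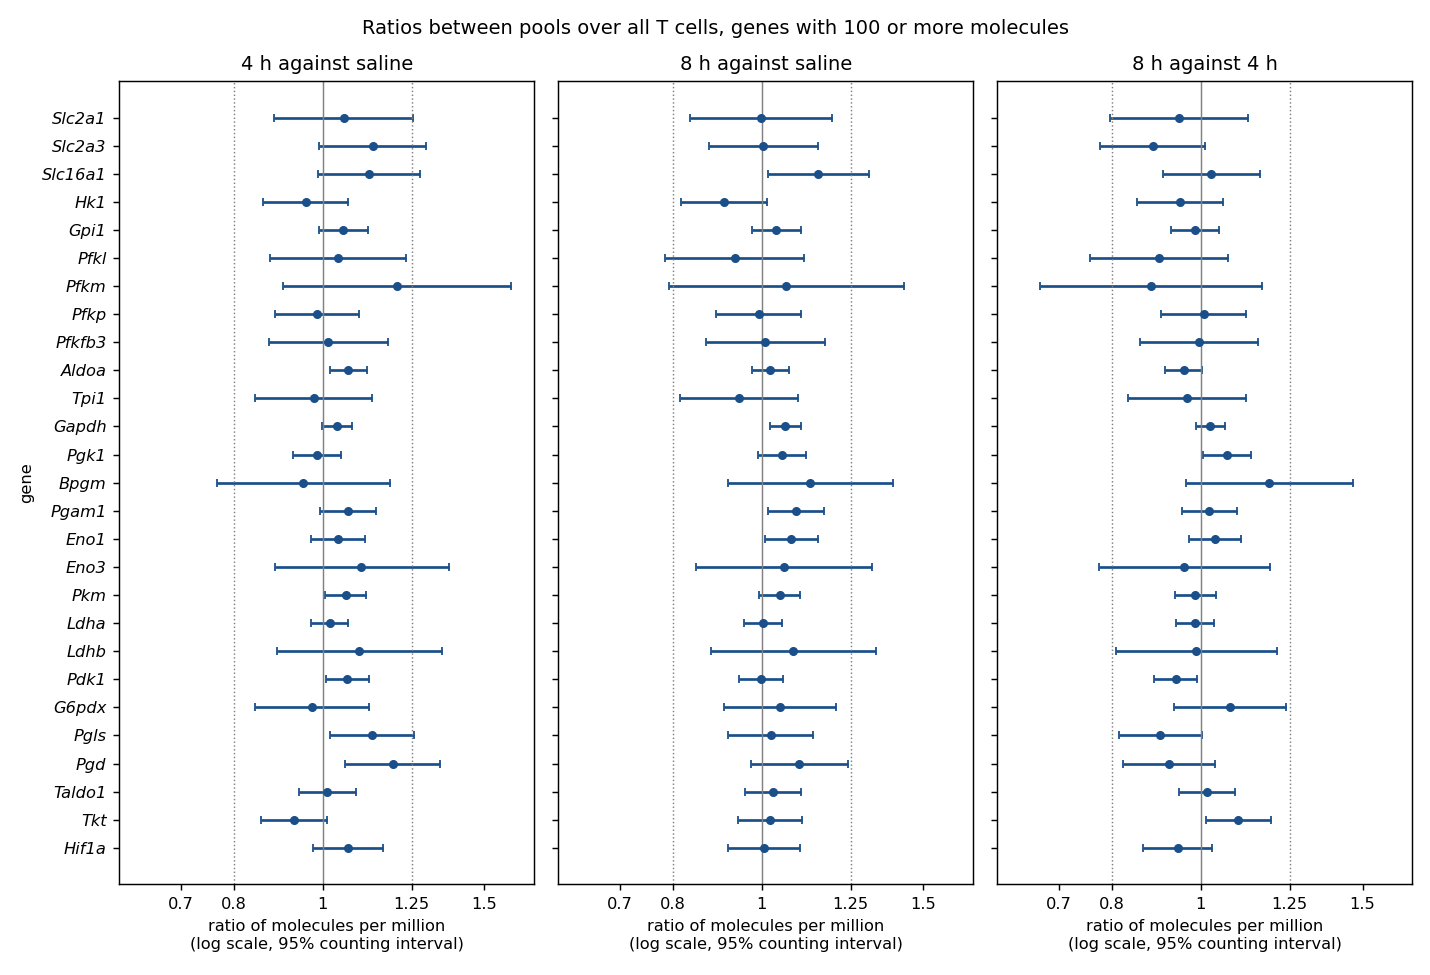
Ratio of CPM between 2 pools (horizontal axis, log scale) over all T cells for 27 genes (rows), with bars for the 95% counting interval and dotted lines at ratios 25% higher and 20% lower. All points lie between the dotted lines in the 3 comparisons.

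Within the classes, and in the T cells of no class, 376 ratios rested on 100 or more molecules, and for 26 of them, or 6.91%, the counting interval left out 1. Over all genes the share was 9.26%. By the fold counted above, 4 of 10 genes were higher and 0 lower in naive CD8 cells at 8 h against saline. Of all genes there, 7.15% were higher and 8.82% lower. In regulatory cells at 4 h, 3 of 12 were higher and 0 lower, beside 9.55% and 9.89% of all genes. In each other class and pair of pools, at most 2 genes passed in either direction, as in cycling cells at 4 h with 0 higher and 2 lower. In CD8 cells with memory genes Slc16a1 was at 1.27 (1.02 to 1.59) at 4 h and 1.36 (1.09 to 1.69) at 8 h against saline, and G6pdx at 0.70 (0.51 to 0.97) and then 1.58 (1.16 to 2.16) from 4 h to 8 h. In regulatory cells the 31 genes together had 2643, 2991 and 2747 CPM, and Gapdh was at 1.255 (1.05 to 1.498) at 4 h. In stimulated cells Pgam1 was at 1.46 (1.11 to 1.92) at 4 h. In memory CD4 cells Tkt was at 0.62 at both 4 h (0.41 to 0.93) and 8 h (0.42 to 0.91), from 65, 43 and 51 molecules. In cycling cells 11 of the 31 genes had 100 or more molecules at 4 h against saline, and their median log2 ratio was 0.01. Whether a class responded differently from another could not be tested with 1 pool per treatment.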

How the data were processed

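Single-cell RNA of T cells was read from 1 capture. The deposited table gives counts of molecules per cell and gene after the pipeline's correction of molecule labels (RSEC), made with the BD WTA Multiplex Rhapsody Analysis Pipeline 1.9.1 on GRCm38 with GENCODE M19, per the file headers. For the aligner, a name was not given in the sources used. Sample tags were assigned by the deposited tag calls, and which tag is which treatment rests on the deposited description alone, with no second check. Of 17299 cells, 1063 multiplets were removed, and cells with 200 or more genes and at most 25% mitochondrial molecules were kept (16123). Doublets within a pool were not removed. The members, lists and gates were chosen with earlier results of these data known. Members past the adjusted threshold are named, with others of the same step, and for times those with the 3 highest and 3 lowest ratios. Members whose counting interval left out 1 were named after their values were seen, and other genes come from 4 lists.

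Molecules were summed per class and pool, scaled to CPM, and fitted with edgeR 4.0.16 (R 4.3.3; TMM, class and pool, genes with 100 or more molecules over 21 sums, Benjamini-Hochberg). The SE is the log2 fold change over the square root of the quasi-likelihood F. Ratios between pools used SciPy 1.17.1. Fits and intervals were tested on simulated data. Alternatives were DESeq2 1.42.0, no TMM, no pool block, no filter, other gates, other depths and leaving out each pool. Replicate labels do not exist, and the pools also differ in treatment.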

Additional observations from a re-analysis of the deposited data

Results flagged for a closer look

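Among 1007 pairs of cell sets compared for a gene and a pair of pools, 2 had counting intervals on opposite sides of 1, and the difference between the cell sets was not tested. Aldoa at 8 h against 4 h was at 1.30 in cycling cells (1.03 to 1.63, from 165 and 147 molecules) and at 0.734 in naive CD8 cells (0.562 to 0.953, from 97 and 150 molecules). Hif1a at 8 h against saline was at 1.43 in memory CD4 cells (1.03 to 1.9996, from 107 and 59 molecules) and at 0.848 in T cells of no class (0.728 to 0.987, from 319 and 378 molecules).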

How the results depend on the processing

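Of the counts of genes called or past the fold and the median log2 ratios between pools, 176 stayed near the main value under an alternative. The other 27 did not. Near meant within 1.5 times the main value for a count. For a median ratio it meant within the typical half-width of the counting intervals. In memory CD4 cells the genes higher were 8 with gates of 3 genes, 2 in cells without Ccr7 or Lef1 and 2 to 3 when a pool was left out, and the genes lower were 1 with DESeq2, 1 without Ccr7 or Lef1 and 1 to 2 without a pool. In CD8 cells with memory genes 2 were higher with gates of 3 genes. In regulatory cells 1 to 3 were lower without a pool. In stimulated cells 3 were higher among cells of 2000 to 4000 molecules. In cycling cells 0 were higher at that depth and 2 at 4000 to 8000 molecules. Between naive CD8 and naive CD4 cells 2 were higher with no filter, 2 lower with no TMM factors, and 0 to 1 in either direction without a pool. Without the replicate block for the pool, 17 genes were higher in cycling cells and 7 in stimulated cells. The main class fit pairs the classes within each pool. Between pools, 1 gene was higher at 4 h among cells of 2000 to 4000 molecules, 2 in naive cells, 1 with a minimum of 10 molecules and 2 when 15% counted, and 2 were lower with the minimum of 10. At 8 h 1 was higher at 15% and 1 lower with the minimum of 10. At 8 h against 4 h 1 was higher with the minimum of 10 and 1 at 15%, and 1 was lower in naive cells and 1 with the minimum of 10.

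The median log2 ratio of the 27 genes at 8 h against 4 h changed sign, from -0.0208 to 0.0064, among cells of 2000 to 4000 molecules. Among genes called in a main class comparison, changes of sign were found only in cycling cells of restricted depth. At 2000 to 4000 molecules the log2 fold changes were Hk1 -0.81, Gpi1 -0.0089, Pfkp -0.75, Pgk1 -0.08, Pgam1 -0.10, Eno1 -0.29, Pkm -0.14, Tkt -0.061 and Slc16a1 -7.58, the last with no molecule in those cycling cells, so that its value depends on the prior count. At 4000 to 8000 molecules they were Pfkp -0.46, Eno1 -0.21, Pkm -0.0133, G6pdx -0.18, Pgd -1.20 and Tkt -0.37. These settings hold fewer cells and molecules, and the signs are those of the scaled fit. In CPM at 2000 to 4000 molecules, Pgam1 had 139.5, 111.8 and 105.8 in cycling cells of the saline, 4 h and 8 h pools. Naive cells of that depth had less, at 88.3, 87.6 and 90.5. For Pgk1, Pkm, Tkt and Eno1, cycling cells lay above naive cells in some pools and below in others. Memory cells without Ccr7 or Lef1, the comparison of naive classes, the times without cycling cells and the depth of 4000 to 8000 molecules were chosen after seeing the data.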

Other observations

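Among T cells of no class, 6342 of 15504, the 31 genes together had 2412, 2437 and 2438 CPM in the saline, 4 h and 8 h pools. Pdk1 had 201, 209.5 and 194 there, between its levels in naive CD4 and in memory CD4 cells. Aldoc had 8, 1 and 2 molecules in regulatory cells of the saline, 4 h and 8 h pools, and Slc16a3, the lactate carrier MCT4, had 0, 5 and 1 molecules in cycling cells.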
